A study of Mus musculus with 14 samples.

Results

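The Hippo-YAP group described here holds 10 mouse genes. They are the target genes Ccn1, Ccn2 and Ankrd1, the inhibitors Amotl1, Amotl2 and Lats2, the LIM protein gene Ajuba, and the effectors Yap1, Wwtr1 and Tead1. They were picked by gene symbol from the 55487 genes of the count table. All 10 were among the 16876 genes that passed the filter on low counts, Ankrd1 mainly through the libraries labelled Cep120 KO. RNA came from ureteric bud cells, the epithelium that branches into the collecting ducts, which were sorted by GFP from E13.5 kidneys. The study asked which pathways are disturbed when centrosomes are lost. There were 5 libraries labelled Cep120 KO (replicates 2, 4, 5, 6 and 7) and 3 controls of that line, and 3 Pkd1 KO libraries with 3 controls of the Pkd1 line. Cep120 is a centriole assembly gene, and the protein made by Pkd1, polycystin-1, is mutated in dominant polycystic kidney disease. The titles mark KO libraries as homozygous and controls as heterozygous, while the genotype label of the controls is WT. A Hoxb7-driven transgene carries both Cre and GFP, so deletion is limited to the ureteric lineage and the controls may carry the transgene too. Nothing in the labels ties a replicate to an embryo, litter or pool, so each p-value reflects the spread among these libraries only, part of which may be technical.

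Hippo signalling is a kinase cascade in which MST kinases activate LATS kinases, and these phosphorylate YAP and its paralogue TAZ (gene Wwtr1). Phosphorylated YAP and TAZ stay in the cytoplasm or are degraded, and the unphosphorylated proteins enter the nucleus and act through TEAD proteins, which bind DNA. The pathway is regulated mostly at the protein level, by cell contact, tension and the actin skeleton, and in the developing kidney Yap1 is needed for normal branching and nephron formation. Ccn1 and Ccn2 encode secreted matricellular proteins and Ankrd1 an ankyrin-repeat protein, and all of them are widely used readouts of YAP activity. Amotl1 and Amotl2 encode angiomotin family proteins that hold YAP at junctions, Lats2 a YAP kinase, and Ajuba a LIM protein that restrains LATS kinases. Amotl2 and Lats2 are themselves YAP targets, so they also act as feedback inhibitors.

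RefSeq promoter windows (GRCm38.p6) of 250 bases before to 50 bases after the start were found for 8 of the 10 members, as 10 windows. The TEAD core motif GGAATG, searched on both strands, was in at least 1 window of 7 of the 8 members and was not in that of Amotl1. Among all 27025 genes with a window, 16.6% held it. Its reverse complement is CATTCC, so each strand counts as the same motif. The AP-1 motif TGANTCA was in no window of a member (8.97% of all genes), and neither was the CArG box bound by SRF (1.81% of all genes). The sequences below are the 250 bases before the start of 3 target genes and of Yap1, chosen because Ccn1, Amotl2 and Ankrd1 showed large differences and Yap1 a small one; capitals mark the TEAD core.
Ccn1, chr3:145649986-145650235, minus strand: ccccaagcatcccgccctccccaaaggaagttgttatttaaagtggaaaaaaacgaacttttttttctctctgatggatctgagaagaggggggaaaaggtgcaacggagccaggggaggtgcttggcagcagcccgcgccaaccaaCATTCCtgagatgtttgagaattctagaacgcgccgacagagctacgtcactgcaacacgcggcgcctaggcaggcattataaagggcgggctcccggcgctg
Amotl2, chr9:102717554-102717803, plus strand: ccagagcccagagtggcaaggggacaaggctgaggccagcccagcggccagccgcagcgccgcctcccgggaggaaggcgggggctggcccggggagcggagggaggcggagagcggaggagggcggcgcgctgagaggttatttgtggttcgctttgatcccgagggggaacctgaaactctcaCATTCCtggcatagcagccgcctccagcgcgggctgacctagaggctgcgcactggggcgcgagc
Ankrd1, chr19:36119845-36120094, minus strand: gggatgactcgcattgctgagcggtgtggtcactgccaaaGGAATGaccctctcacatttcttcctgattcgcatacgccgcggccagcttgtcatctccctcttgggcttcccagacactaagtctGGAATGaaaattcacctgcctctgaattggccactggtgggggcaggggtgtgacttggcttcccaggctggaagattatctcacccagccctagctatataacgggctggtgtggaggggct
Yap1, chr9:8004597-8004846, minus strand: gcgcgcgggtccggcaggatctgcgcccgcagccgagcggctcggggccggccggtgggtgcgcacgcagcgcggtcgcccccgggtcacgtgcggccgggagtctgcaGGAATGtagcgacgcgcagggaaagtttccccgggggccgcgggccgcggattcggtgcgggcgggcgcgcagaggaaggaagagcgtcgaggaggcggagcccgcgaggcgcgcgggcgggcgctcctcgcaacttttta
The first base of the core was at position -103 from the start of Ccn1, -65 from that of Amotl2 and -141 from that of Yap1, and Ankrd1 held a pair of cores, at -210 and -123. Yap1, which differed little, carries the same core as Ccn1, Amotl2 and Ankrd1. Amotl1, which rose by a log2 fold change of 2.65, held no core in its window. A link between the core and the differences was not tested. The RefSeq start used for Amotl1 lies 30056 bases downstream of the GENCODE gene start that for Amotl2 lies 1132 bases downstream, and those for Lats2 lie 12265 and 23970 bases downstream, of which only the first window held the core. Other starts of these genes were not searched.

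**Figure D1:**
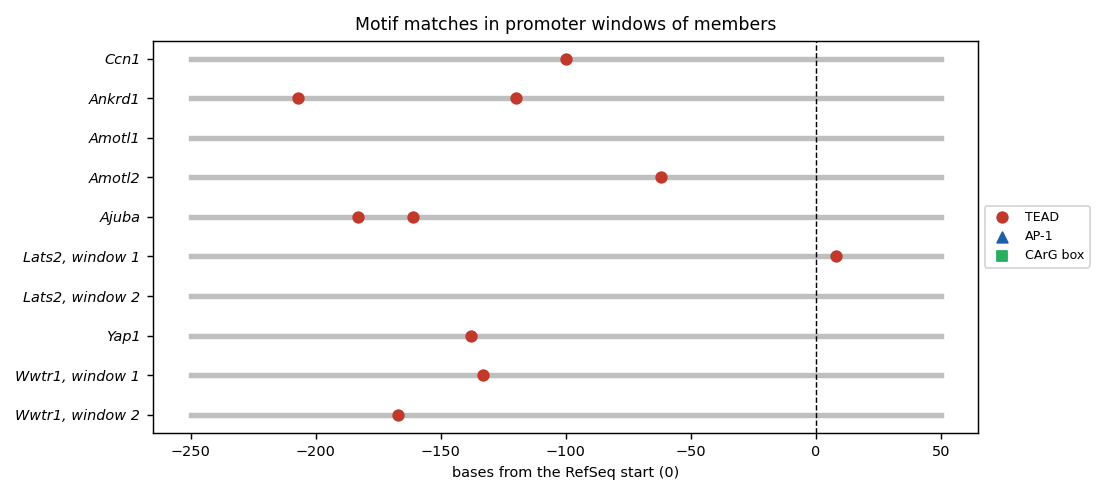
Positions of motif matches in the promoter windows of 8 members; the horizontal axis is the distance in bases from the RefSeq start, grey bars are windows, and each point is a match. TEAD cores fall before the start in Ccn1, Ankrd1, Amotl2, Ajuba, Yap1 and Wwtr1 and just after it in Lats2, and no AP-1 or CArG match was found, so those symbols stand in the legend alone.

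Total counts per library ran from 11347628 to 27967540. The Cep120 gene did not have fewer reads in its KO-labelled libraries: it averaged 15.6 ± 5.3 CPM (CPM is the count scaled to library size, here with TMM factors; SD, n = 5), against 8.83 ± 2.18 CPM in their controls (SD, n = 3), so these reads do not check that label. Pkd1 averaged 2.50 ± 0.16 CPM in Pkd1 KO and 3.93 ± 0.63 CPM in its controls (SD, n = 3 each), lower in every KO library but not called. The exons removed from each gene were not known here. All 18 ureteric markers were detected in every group, and their summed level was 1833 and 2435 CPM in libraries 6 and 7, 4099 to 4360 CPM in libraries 2, 4 and 5 labelled Cep120 KO, and 3950 to 4190 CPM in their controls. Libraries 6 and 7 also stood apart by 12 nephron progenitor markers, which summed to 954 and 733 CPM there, to 32.2 to 38.0 CPM in libraries 2, 4 and 5, and to 52.5 to 65.0 CPM in the controls. In libraries 4 to 7, genes of the longest decile lay 0.705 to 0.782 (log2, median) above those of the shortest relative to the mean of the 6 controls, against -0.209 to 0.358 in the other 10 libraries. Libraries 4 and 5 differed from each other least of all pairs within a group (chi-square per degree of freedom 4.54, next lowest 12.6).

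In the libraries labelled Cep120 KO, the secreted target Ccn1, the angiomotin genes Amotl1 and Amotl2 and the effector Tead1 rose against the controls of that line (4 of 10 members, none fell), at a Benjamini-Hochberg adjusted p under 0.05 over all genes tested. The targets Ccn2 and Ankrd1, the inhibitor Lats2 and the LIM protein gene Ajuba were not called. In a fit of these groups alone, no member was called (adjusted p = 0.133 for Ccn1, Amotl1 and Amotl2 and 0.149 for Tead1). There, 5 of 10 passed an unadjusted p under 0.05, beside 4081 of 15972 genes. In the fit of all libraries, 14.7% of the 16876 genes were called in either direction and 8.4% were called higher. At an unadjusted p under 0.05 the count in that fit was 7 of 10, beside 5680 of 16876 genes. The 7 include Ankrd1, which passed the count filter mainly through the libraries labelled Cep120 KO. The median log2 fold change of all 10 members, Ankrd1 among them, was 1.05, beside 0.12 over all genes. With no filter on low counts it was 1.05, beside 0.11. Yap1 and Wwtr1, the transcripts of the effectors themselves, averaged 1.19-fold and 0.98-fold and were not called. In bulk RNA, more cells of a type and more RNA per cell cannot be told apart.

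**Figure D2:**
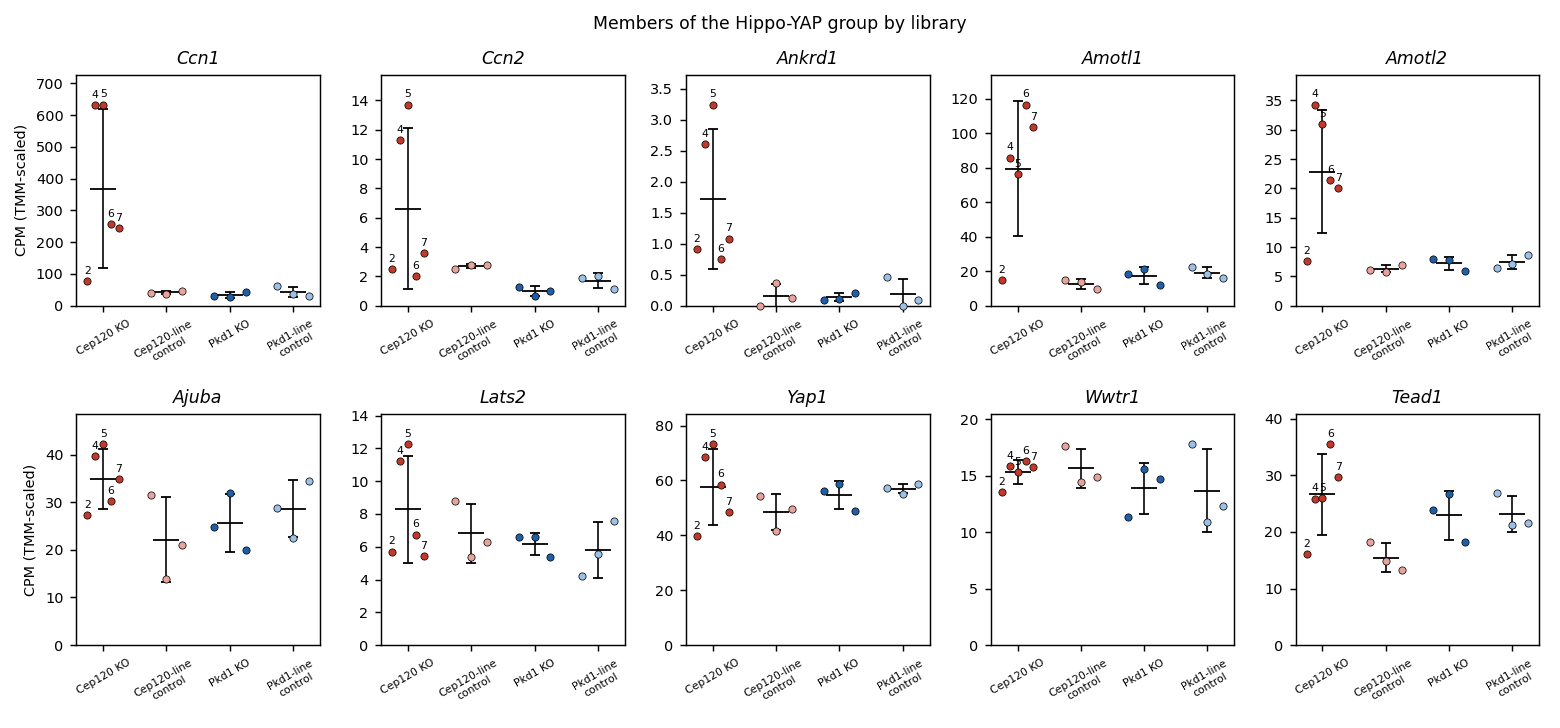
Level of each member in TMM-scaled CPM on a linear axis from 0, with 1 point per library, numbered for the libraries labelled Cep120 KO; horizontal marks and bars are the mean and SD. For Ccn1, the 5 libraries labelled Cep120 KO lie between 76.3 and 633 CPM, all above the 3 controls, while Pkd1 KO libraries and their controls overlap.

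Ccn1 was at 76.3, 632, 633, 257 and 245 CPM in libraries 2, 4, 5, 6 and 7 labelled Cep120 KO, against 40.9, 37.5 and 47.4 CPM in controls 1, 2 and 3. Every KO-labelled library was above every control, libraries 4 and 5 by the widest margin and library 2 by the narrowest. The fitted log2 fold change was 3.14 (SE 0.58, adjusted p = 0.0290), an 8.79-fold higher level. Ccn2, the other CCN family member, did not separate in this way. It was at 2.49, 11.3, 13.7, 2.04 and 3.60 CPM in the libraries labelled Cep120 KO, against 2.53, 2.75 and 2.76 CPM in controls. Libraries 4, 5 and 7 were above all controls and libraries 2 and 6 below them, and Ccn2 was not called (log2 fold change 1.30, SE 0.60, adjusted p = 0.142). Of the alternative fits, only limma-voom called Ccn2 (2.07, adjusted p = 0.00143). Without libraries 4 and 5 its log2 fold change was 0.02. In the deposited TPM, which also correct for transcript length, library 6 was above the controls, at 2.66 TPM against 0.997 to 1.151 TPM. Library 2 was within their range, at 1.091 TPM. The place of libraries 2 and 6 relative to the controls thus depends on the unit.

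Ankrd1 was almost silent outside the libraries labelled Cep120 KO. It had 14, 49, 79, 21 and 34 reads there (0.918, 2.61, 3.24, 0.752 and 1.08 CPM), against 0, 9 and 2 reads in controls (0, 0.370 and 0.123 CPM). Every KO-labelled library was higher, at low counts throughout. The log2 fold change of 3.27 (SE 1.09) missed the threshold (adjusted p = 0.0570). The call depends on the fit: Ankrd1 was called with DESeq2, limma-voom and limma-trend (adjusted p = 0.00915, 0.00357 and 0.0264) and without KO library 2 (0.0310), and in no other alternative.

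The angiomotin family members Amotl1 and Amotl2 rose, and their order over the libraries was not the same. Amotl1 was at 14.9, 86.0, 76.2, 117 and 104 CPM in libraries 2, 4, 5, 6 and 7 labelled Cep120 KO, against 14.6, 13.7 and 9.58 CPM in controls (log2 fold change 2.65, SE 0.50, adjusted p = 0.0290). Libraries 6 and 7 were highest, and library 2 was level with the highest control. Amotl2 was at 7.67, 34.3, 31.0, 21.5 and 20.0 CPM, against 6.05, 5.83 and 6.997 CPM in controls (log2 fold change 1.86, SE 0.38, adjusted p = 0.0290). Here libraries 4 and 5 were highest, and library 2 was again just above the controls. As for Ccn1, all their KO-labelled libraries were above all controls, a pattern seen in 6.41% of the genes tested. Ankrd1 showed it too, but it passed the count filter mainly through those libraries, so it is not set against that share.

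Ajuba, the LIM protein gene, was at 27.3 to 42.2 CPM (median 34.9) in the libraries labelled Cep120 KO and at 13.8 to 31.6 CPM (median 21.1) in controls. The groups overlapped, and Ajuba was not called (log2 fold change 0.66, SE 0.27, adjusted p = 0.104). It was called on the deposited log2 CPM, with limma-trend (1.10, adjusted p = 0.0277), and with limma-voom, and was at 0.28 with length and GC offsets (adjusted p range over the alternatives 0.0017 to 0.750). Lats2, the kinase gene, was at 5.41 to 12.3 CPM (median 6.74) and at 5.38 to 8.81 CPM (median 6.26) in controls, with only libraries 4 and 5 above all controls (log2 fold change 0.28, SE 0.33, adjusted p = 0.577). It was called only with limma-voom (0.81, adjusted p = 0.0118).

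Among the effectors, only Tead1, a TEAD that binds DNA for YAP and TAZ, rose. It was at 16.1, 25.9, 26.0, 35.6 and 29.7 CPM in the libraries labelled Cep120 KO, against 18.2, 14.9 and 13.3 CPM in controls (log2 fold change 0.79, SE 0.24, adjusted p = 0.0444). Libraries 4 to 7 were above all controls and library 2 lay within them. This call was lost in 21 of 26 alternative fits, among them those without any 1 of the 6 libraries of the Pkd1 line. Yap1 was at 39.8, 68.6, 73.3, 58.5 and 48.4 CPM, against 54.3, 41.4 and 49.5 CPM in controls. Libraries 4, 5 and 6 were above the controls and library 2 below them (log2 fold change 0.25, SE 0.19, adjusted p = 0.376). Wwtr1, which encodes TAZ, was nearly level at 13.51, 15.8, 15.3, 16.3 and 15.7 CPM, against 17.6, 14.5 and 14.9 CPM in controls (log2 fold change -0.03, SE 0.20, adjusted p = 0.932). These statements on Yap1 and Wwtr1 depend on how libraries are scaled. With the deposited log2 CPM, which carry no TMM factor, the median over all genes was 0.45 in place of 0.12, and Yap1 and Wwtr1 were at log2 fold changes of 0.61 and 0.36, neither called. On that scale 82.6% of calls over all genes were higher, against 57.3% with TMM. With limma-voom, which called 6665 of 16876 genes, Yap1 was called (log2 fold change 0.56, adjusted p = 0.00199) and Wwtr1 was not (0.01). In deposited TPM, Yap1 was at 9.43, 24.9, 26.7, 22.8 and 19.7 in libraries 2, 4, 5, 6 and 7, against 11.3, 9.11 and 12.04 in controls. Wwtr1 was at 3.015, 5.44, 5.28, 5.83 and 6.15 TPM there, against 3.44, 3.028 and 3.21 TPM in controls. For both genes, libraries 4 to 7 were thus all above the controls on that scale.

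**Figure D3:**
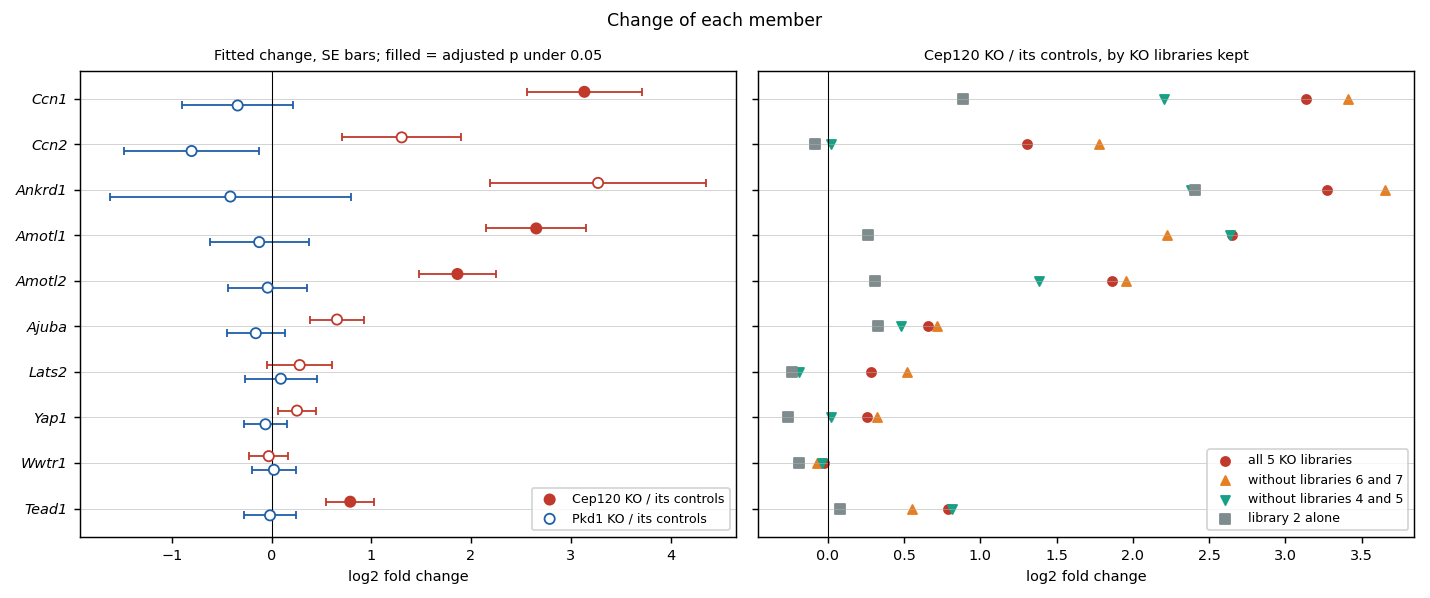
Left, log2 fold change with SE of each member in libraries labelled Cep120 KO (red) and in Pkd1 KO (blue), each against the controls of its line, filled where adjusted p was under 0.05; right, the Cep120 comparison with all 5 KO-labelled libraries and with subsets of them. Ccn1 is at 3.14 with all libraries and at 0.88 with library 2 alone, and the Pkd1 points run from -0.80 (Ccn2) to 0.09 (Lats2), none filled.

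The higher levels stood mainly in libraries 4 to 7. With libraries 6 and 7 left out, Ccn1, Amotl1 and Amotl2 were called higher (3 of 10; 3.44% of all genes), and the same 3 genes were called with libraries 4 and 5 left out (8.6% of all genes called higher). A fit with library 2 as the only KO-labelled library takes its spread from the other groups and has little power. There, no member was called in either direction (0.0278% of all genes). Ccn1, Amotl1 and Amotl2 were then at log2 fold changes of 0.88, 0.26 and 0.31. Allowing for gene length and GC content, the same 3 genes were called, at 2.88 for Ccn1, 2.43 for Amotl1 and 1.60 for Amotl2 (5.05% of all genes called higher). Tead1 lost its call in these 4 fits, where its log2 fold change was 0.55, 0.82, 0.08 and 0.84. No member was called when KO library 7 or Cep120-line control 1, 2 or 3 was left out. Over all genes tested, those fits called only 8, 2, 6 and 3 genes, in that order. The log2 fold change of Ccn1 stayed between 2.85 and 3.40 over all 14 fits that left out 1 library.

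**Figure D4:**
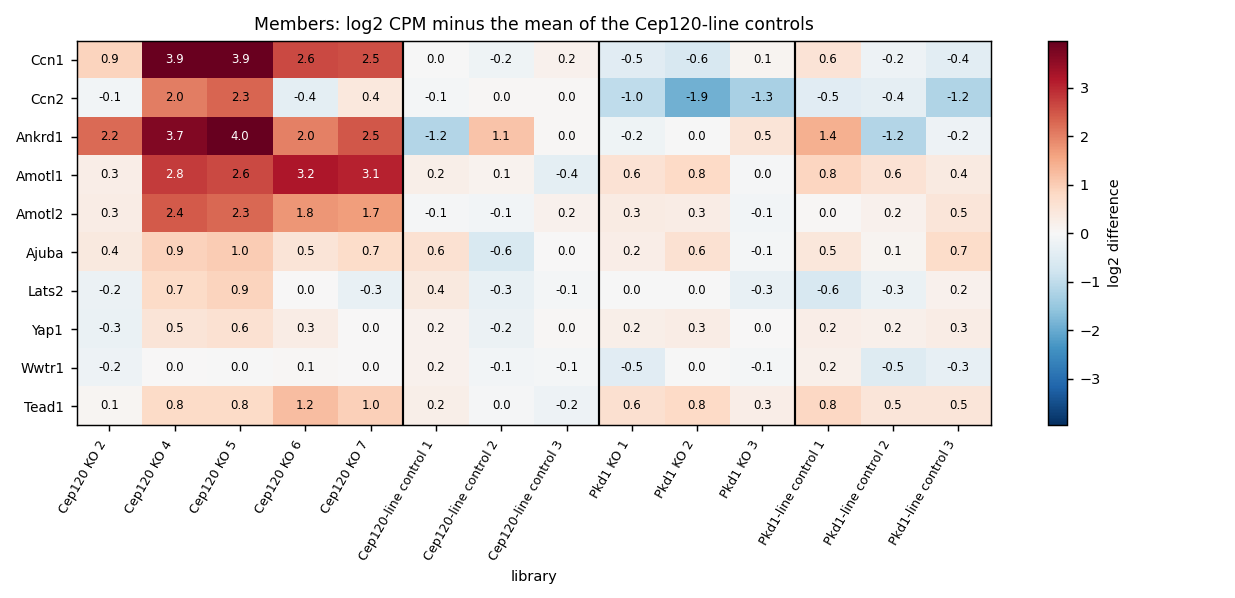
Log2 CPM (prior count 2) of each member in each library, minus its average over the 3 Cep120-line controls; columns are libraries, vertical lines separate groups, red is higher and blue lower. Libraries 4 and 5 labelled Cep120 KO hold the highest values of Ccn1, Ccn2, Ankrd1 and Amotl2, and libraries 6 and 7 those of Amotl1 and Tead1.

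Over the libraries labelled Cep120 KO, the median difference of the 10 members from the control mean was 0.17 in library 2, 1.48 in library 4, 1.65 in library 5, 0.87 in library 6 and 0.84 in library 7, on the log2 scale. Genes of the immediate early response, which enzymatic dissociation of tissue also induces, moved with it. Of 23 tested, 16 rose and none fell, beside 8.4% of all genes called higher, with a median log2 fold change of 2.25. This list also holds the heat shock genes Hspa1a, Hspa1b and Dnajb1, and Hspa1a and Dnajb1 are among the 16. Their median difference by library was 0.57, 2.64, 2.55, 2.08 and 2.06 in libraries 2, 4, 5, 6 and 7, against -0.18 to 0.14 in the controls. Egr1, an immediate early transcription factor, was at 11.2, 157, 175, 123 and 127 CPM in the libraries labelled Cep120 KO, against 13.4, 12.3 and 12.2 CPM in controls (log2 fold change 3.23, SE 0.62, adjusted p = 0.0290), and was at -0.15 with library 2 alone. Klf6 (1.89), Jund (1.46) and Dusp1 (2.65) rose as well, with every KO-labelled library above every control. The part of this response in the levels of Ccn1 and the other members was not tested.

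Markers of other cell types moved with some members. Nephron progenitor genes were high in libraries 6 and 7, where Amotl1 and Tead1 were highest, and not in libraries 4 and 5, where Ccn1, Ankrd1 and Amotl2 were highest. Stromal markers summed to 127 and 162 CPM in libraries 6 and 7 and to 8.59 to 20.2 CPM in libraries 2, 4 and 5 labelled Cep120 KO, against 10.3 to 80.4 CPM in controls. Endothelial markers summed to 22.7 to 107 CPM in the libraries labelled Cep120 KO, against 41.9 to 93.1 CPM in controls. Macrophage markers summed to 6.56 to 33.7 CPM, against 35.0 to 62.8 CPM in controls. They summed to 9.75 to 20.7 CPM in Pkd1 KO and 5.31 to 25.3 CPM in Pkd1-line controls, so the Cep120-line controls were the highest group. Erythroid and platelet markers summed to 5.97 to 1130 CPM, against 576 to 7660 CPM in controls, and among them Gata1 was at 0 in the libraries labelled Cep120 KO. Each of these lists has 12 genes, all found. Their part in the results on the members was not tested.

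In Pkd1 KO, no member was called against its controls, and no gene was over the whole table (0% of 16876 genes; 259 genes and no member at an unadjusted p under 0.05; DESeq2 called 3 genes and no member). The median log2 fold change of the members was -0.09. For all 10 members, libraries of the groups overlapped, where 11.1% of all genes showed no overlap in one direction or the other. Ccn1 was at 30.3, 27.1 and 44.5 CPM in Pkd1 KO, against 61.4, 36.0 and 31.5 CPM in controls (log2 fold change -0.34, SE 0.56). The widest shift was in Ccn2, at 1.30, 0.646 and 1.04 CPM in Pkd1 KO, against 1.92, 2.06 and 1.13 CPM in controls (log2 fold change -0.80, SE 0.68; edgeR, adjusted p = 1.0). Amotl1, Amotl2, Tead1, Yap1 and Wwtr1 were at log2 fold changes of -0.13 to 0.02, with SE of 0.21 to 0.50, so small changes could not have been detected.

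The Cep120 effect minus the Pkd1 effect was tested as a term of its own, and no member and no gene passed (0% of 16876 genes called by edgeR). At an unadjusted p under 0.05, 6 members and 3436 genes were found. DESeq2 called 3 members, Ccn1, Amotl1 and Amotl2, beside 723 of 16876 genes. For Ccn1 the difference was 3.48 on the log2 scale (SE 0.78, adjusted p = 0.176), for Amotl1 2.78 (SE 0.69, adjusted p = 0.176) and for Amotl2 1.90 (SE 0.54, adjusted p = 0.176). Without KO library 2, 4 members passed in edgeR, those genes and Tead1, beside 3140 of 16825 genes. A member called for Cep120 and not for Pkd1 is thus not shown by the edgeR fit of all libraries to differ between the knockouts.

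Between the control groups, no member was called (21 genes, 0.124%, were). The Cep120-line and Pkd1-line controls did not overlap for 4 of 10 members, beside 21.5% of all genes. Tead1 was at 18.2, 14.9 and 13.3 CPM in Cep120-line controls, against 26.9, 21.3 and 21.5 CPM in Pkd1-line controls (log2 fold change -0.59, SE 0.26; edgeR, adjusted p = 0.980). Amotl1 and Yap1 were lower in the same way and Ccn2 was higher. The Tead1 level of libraries 4 and 5 labelled Cep120 KO, 25.9 and 26.0 CPM, was within the range of the Pkd1-line controls.

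Levels of different genes can be compared only per length, in the deposited TPM (length-corrected transcript shares), which have no TMM factor. Ccn1 was the most abundant member in every group, at a mean of 278 ± 192 TPM in libraries labelled Cep120 KO (SD, n = 5), 19.2 ± 2.9 in their controls, 17.3 ± 4.6 in Pkd1 KO and 23.5 ± 9.7 in Pkd1-line controls (SD, n = 3 each). In Pkd1 KO its range overlapped that of Yap1, at 13.54 ± 1.44 TPM. In the Cep120-line controls the order below Ccn1 was Yap1 (10.8 ± 1.5 TPM), Ajuba (7.98 ± 3.13), Tead1 (6.20 ± 0.95), Wwtr1 (3.23 ± 0.21), Amotl2 (1.67 ± 0.23), Lats2 (1.37 ± 0.31), Amotl1 (1.30 ± 0.04), Ccn2 (1.10 ± 0.09) and Ankrd1 (0.076 ± 0.081). Neighbours in this order overlapped from Yap1 to Tead1 and from Amotl2 to Amotl1. In libraries labelled Cep120 KO, the means of Amotl1 (12.6 ± 7.0 TPM) and Amotl2 (10.2 ± 5.3 TPM) stood above that of Wwtr1 (5.14 ± 1.24 TPM). All neighbours below Ccn1 overlapped. Library 2 had the reverse order, with Amotl1 at 1.51, Amotl2 at 2.23 and Wwtr1 at 3.015 TPM.

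Ratios within a library do not depend on its scaling. Ccn1 over Ccn2, as a ratio of TPM, was 34.9 to 75.2 in libraries labelled Cep120 KO and 15.0 to 19.6 in their controls, and the groups did not overlap; in Pkd1 KO it was 25.8 to 46.6, against 15.3 to 35.7 in its controls. Yap1 over Wwtr1 was 3.13 to 5.06 in libraries labelled Cep120 KO, against 3.01 to 3.75 in controls, which overlap. Amotl1 over Amotl2 was 0.675 to 2.16, against 0.710 to 0.895 in controls, and its high values were those of libraries 6 and 7.

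Transcript levels added up to the gene for Ccn1, Amotl1, Ankrd1 and Ajuba. For Amotl1 the coding transcript Amotl1-201 made up 98.9 to 100% of the gene's TPM in libraries labelled Cep120 KO, and 67.7 to 100% in controls. For Ajuba, the retained-intron transcript Ajuba-202 was the larger part in most libraries, at 15.0 to 81.2% (median 69.4%) in libraries labelled Cep120 KO and 74.8 to 86.7% (median 76.8%) in controls. The coding transcript Ajuba-201 made up 18.8 to 84.95% there and 13.3 to 25.2% in controls, with the highest share in library 7.

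The counts of other pathway genes in the libraries labelled Cep120 KO are read beside the 8.4% of all genes called higher, where 57.3% of all calls were higher. Of 25 core kinases, scaffolds and upstream regulators, 7 rose and none fell, with a median log2 fold change of 0.79, beside 0.12 over all genes. Rassf1, a scaffold that binds MST kinases, was at 33.0, 79.5, 81.3, 80.4 and 56.9 CPM in the libraries labelled Cep120 KO, against 21.0, 28.9 and 20.6 CPM in controls (log2 fold change 1.49, SE 0.28, adjusted p = 0.0290). Mark3 (0.63), a polarity kinase, also had every KO-labelled library above every control. Mark2 (1.55), a related kinase, and Nf2 (1.44), which encodes the upstream activator merlin, rose in libraries 4 to 7 but were at -0.15 and -0.37 with library 2 alone. Of 15 other angiomotin, LIM and junction genes, 2 rose and none fell (median 0.76), a count near the 8.4% of all genes. These were Ptpn14 (1.04), a phosphatase that binds YAP, and Csnk1e (1.01), a casein kinase, which was at -0.04 with library 2 alone.

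Among 11 tested of 14 other TEADs and nuclear partners, 2 rose and none fell (median 0.60), beside 8.4% of all genes called higher. Tead3, a second TEAD, was at 1.51, 7.52, 7.06, 18.5 and 15.2 CPM in the libraries labelled Cep120 KO, against 2.41, 2.75 and 1.84 CPM in controls (log2 fold change 2.09, SE 0.61, adjusted p = 0.0389). Like Tead1 and Amotl1, it was highest in libraries 6 and 7. Arid1a, a chromatin remodelling subunit that binds YAP, rose by 1.42. With library 2 alone, Tead3 and Arid1a were at -0.61 and -0.45.

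Of 26 tested of 32 other genes described as YAP or TAZ targets, 7 rose and 1 fell (median 0.85), beside 8.4% of all genes called higher and 14.7% called. Arhgef17 was at 10.4, 29.2, 29.1, 32.9 and 26.6 CPM in the libraries labelled Cep120 KO, against 7.40, 8.83 and 3.50 CPM in controls (log2 fold change 1.96, SE 0.41, adjusted p = 0.0290). Gadd45a (1.67) and Gadd45b (2.51), which respond to stress and DNA damage, and Ccdc80 (2.08), a matrix protein gene, rose too; Gadd45b and Ccdc80 were at -0.52 and -0.49 with library 2 alone. The gene that fell was Birc5, which encodes the mitotic protein survivin (-0.58, adjusted p = 0.0470; named after its value was seen). Of 16 actin and SRF target genes, 1 rose and none fell (median 0.77), a share below the 8.4% of all genes called higher. It was Zyx, the focal adhesion gene, at 1.32. Srf stands in this list and in that of immediate early genes. In Pkd1 KO none of these lists had a called gene. Their genes with the lowest p were Mark3 (0.25), Wtip (0.46), Vgll3 (-1.75), Dock5 (2.88), Klf4 (1.26) and Acta2 (2.51), as log2 fold changes, and the medians of the lists ran from -0.07 to 0.11. The widest of these rest on few reads or on 1 library. Vgll3 had 0, 2 and 4 reads in Pkd1 KO, against 7, 16 and 4 in controls. Dock5 had 9, 23 and 1, against 1, 0 and 4, and Acta2 had 13, 344 and 0, against 15, 35 and 5.

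**Figure D5:**
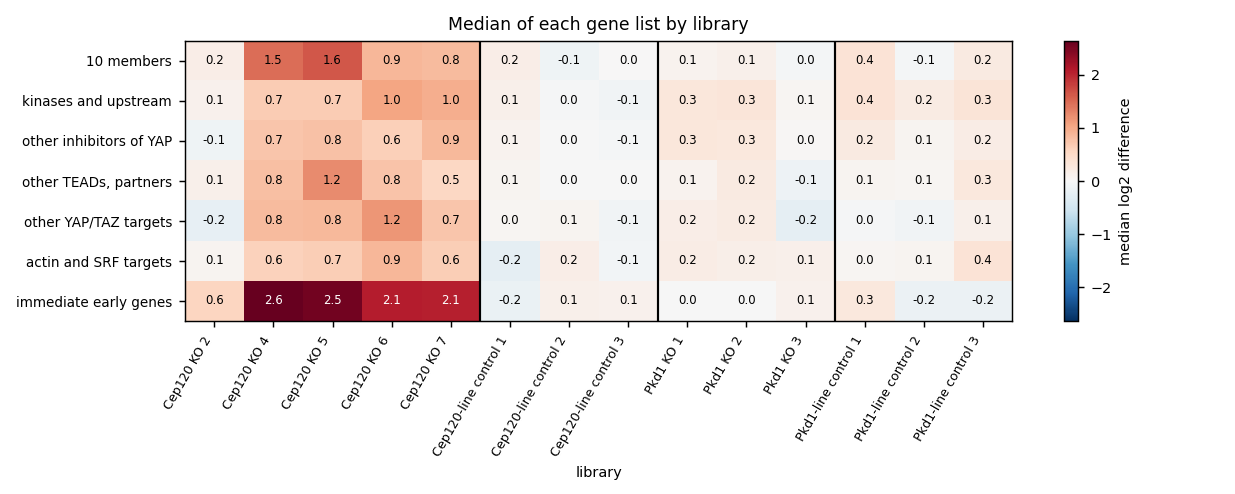
Median over the genes of each list of log2 CPM minus the Cep120-line control mean; rows are the members and the other lists, columns are libraries, red is higher and blue lower. The row named other inhibitors of YAP holds the angiomotin, LIM and junction genes. The immediate early genes have the highest medians in libraries 4 to 7 labelled Cep120 KO (2.06 to 2.64), and library 2 is nearer to the controls in each list.

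The genes whose pattern over the 14 libraries was most like that of Ccn1 were, among 9443 protein-coding genes of at least 5 CPM, Ppp1r15a, Egr1 and Fos. Likeness was the root mean square difference of centred log2 CPM, which was 0.32 for Ppp1r15a, a stress-induced phosphatase subunit, 0.53 for Egr1 and 0.54 for Fos. No member was as close: Ankrd1 was at 0.72, Amotl1 at 0.78, Amotl2 at 0.79 and Ccn2 at 0.87, and Yap1 at 1.47. Ppp1r15a was at 8.98, 80.0, 92.5, 49.9 and 42.2 CPM in the libraries labelled Cep120 KO, against 6.40, 8.42 and 8.90 CPM in controls. Libraries 4 and 5 were highest, as for Ccn1. The genes most like Yap1 were Vps54 (0.12), Prr11 (0.13) and Arih1 (0.14), and Wwtr1, Lats2, Ajuba and Tead1 were at 0.29 to 0.31 from it. These measures share libraries, depth and scaling, and they are descriptions.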

How the data were processed

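Estimated counts per gene were deposited by the authors without normalization and were rounded to whole numbers before testing. The deposited TPM and log2 CPM values are the authors' own; TPM served for levels and transcript shares, and log2 values for an alternative test. The submitters' processing notes name DRAGEN and mm9, with no role or version; the counting settings were not stated. The SMARTer kit, per the labels' protocols, does not mark strand. Of 55774 lines, 287 repeats were dropped. Coordinates are GRCm38 (GENCODE M21, or RefSeq for promoters).

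Tests used edgeR 4.0.16 in R 4.3.3: filterByExpr at a minimum count of 10, TMM, and a quasi-likelihood fit of 4 group means over all 14 libraries (10 residual degrees of freedom), with Benjamini-Hochberg adjustment over 16876 genes and a threshold of 0.05. The fits were tested on simulated data. Alternatives were other size factors, no filter, separate fits, DESeq2 1.42.0, limma 3.58.1, length and GC offsets (mgcv), a replicate block, and libraries left out or summed.

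Named genes are the 10 members, the targeted genes, up to 4 called genes per list and comparison with the smallest adjusted p (or the gene with the smallest p), and the 3 genes most like Ccn1 and Yap1. Members and lists were chosen with earlier results of these data known. Counts carry no molecular identifiers.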

Additional observations from a re-analysis of the deposited data

How the results depend on the processing

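For Cep120, 4 members were called, and 3 to 6 with RLE size factors, no filter, DESeq2, limma-trend, length and GC offsets, either pair of libraries left out, or libraries 4 and 5 summed. The count was 0 in a separate fit of those groups, 0 with library 2 as the only KO-labelled library and 9 with limma-voom, which weighted libraries 4 and 5 most (3.85 and 3.34) and libraries 2, 6 and 7 least (0.125 to 0.163). Over all genes tested, 2475 genes were called, against 0 in the separate fit (smallest adjusted p 0.133), 4199 with DESeq2, 6665 with limma-voom, 1028 without libraries 6 and 7, 1587 with length and GC offsets, 1400 with libraries 4 and 5 summed and 5 with library 2 alone. Leaving out 1 library gave 0 to 5 members and 2 to 5719 genes. For the Cep120 effect minus the Pkd1 effect, 0 members became 3 with DESeq2 (723 genes called) and 7 with limma-voom (4383 genes called). Over the single libraries left out the count was 0 to 4, with up to 3140 genes called. The Pkd1 KO and control comparisons gave 0 members in every fit. With library 2 alone, 8 called genes of other lists turned round: Mark2 (-0.15), Nf2 (-0.37), Csnk1e (-0.037), Arid1a (-0.45), Tead3 (-0.61), Ccdc80 (-0.49), Gadd45b (-0.52) and Egr1 (-0.15). The cause of these changes was not tested.

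Replicate numbers 1 to 3 are shared by Pkd1 KO and its controls, but same-numbered libraries did not deviate together (r = -0.123, 0.018 and -0.173), so they share only a number. A fit with the replicate block for that line gave 0 members for Pkd1 KO and 0 members and 0 genes for Cep120 (smallest adjusted p over all genes 0.0648). Cep120 KO and its controls share only number 2, so no block was possible there. Low counts limit Ankrd1 and Ccn2.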
